A study of Mus musculus with 3 samples.

Results

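Genes for glycosyltransferases and sulphotransferases that build the sugar chains of the cell surface were examined in 3 stromal populations of the mouse mesenteric lymph node. Members were taken by gene name from the array annotation: the Fut, St3gal, St6gal (which takes in St6galnac), St8sia, B3gnt, B3gal, B4gal, Gcnt, Galnt, Chst, Hs2st, Hs3st, Hs6st, Ndst, Ext and C1galt families. This gave 111 of 28084 gene names, measured by 187 probes, and each gene stands for its probe of highest mean log2 signal over the 3 arrays. The populations were sorted from digested nodes of wild-type C57BL/6NCrl mice after removal of CD45-bearing cells, and all of them shared a gate without CD45 and CD24. Blood endothelial cells (BEC; CD31+ gp38-) line the blood vessels, lymphatic endothelial cells (LEC; CD31+ gp38+) line the lymph sinuses, and fibroblastic reticular cells (FRC; CD31- gp38+) build the fibre network. Each population was hybridised to 1 single-colour array, which leaves the differences unreplicated and without a test. Neither the number of animals behind each RNA nor their age is given, and the stated mean purity of the sorted subsets is below full purity.

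Glycans on secreted and membrane proteins are built in the Golgi apparatus, where transferases add 1 sugar at a time and sulphotransferases then modify the chain. In lymph nodes these enzymes are best known for the high endothelial venules, whose mucin-like proteins carry sulphated, sialylated and fucosylated O-glycans that act as selectin ligands for lymphocytes. Other members start mucin-type O-glycans, cap chains with sialic acid, or build and sulphate heparan sulphate, the proteoglycan chain that holds chemokines and growth factors at the cell surface.

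A level is the log2 signal of a probe relative to its array's 75th percentile, a difference is between the levels of 1 probe on 2 arrays, and levels of different probes are not set against each other. Comparison required a probe well above background on at least 1 of the arrays, and 4-fold was the threshold for a call. Where the probe was not well above background on the dimmer array, the fold is a bound and is given as "at least". Replicate spots of other probes varied with a median SD of 0.05 to 0.06 (log2), a measure of spot error alone, and each member's probe had a single spot. Marker genes of BEC and FRC followed the labels. The summed signal of 6 blood endothelial markers was 765 times the 75th percentile in BEC, 193 in LEC and 9.07 in FRC, and that of 7 FRC markers was 33.0 in BEC, 80.3 in LEC and 1695.5 in FRC. The summed signal of 6 lymphatic markers did not, at 471 in BEC, 266 in LEC and 406 in FRC, a sum led by the chemokine gene Ccl21a (8.82 in BEC, 6.02 in LEC and 8.66 in FRC), while the other 5 were each highest in LEC. Among these, Prox1, the defining lymphatic gene, was at -0.51 in BEC, 3.53 in LEC and -3.56 in FRC. High endothelial transcripts were not confined to BEC, with a summed signal of 6 such genes of 954 in BEC, 276 in LEC and 204 in FRC. These genes differed in their order. Glycam1 was at 9.49 in BEC, 7.78 in LEC and 2.87 in FRC. Ch25h was at 5.62 in BEC, 2.21 in LEC and 2.88 in FRC, and Enpp2 was highest in FRC, at 6.95, 5.18 and 7.50 in the same order. Blood cell genes also differed between the arrays. The summed signal of 4 B cell genes was 9.14 in BEC, 3.57 in LEC and 1.45 in FRC, and all 4 were well above background on each array. Corresponding sums were 2.73, 1.11 and 1.19 for 3 T cell genes, 5.19, 10.7 and 6.21 for 6 macrophage and dendritic cell genes, and 222, 83.3 and 17.0 for 3 red cell genes, in BEC, LEC and FRC in that order. Sums for 5 epithelial and mesothelial genes were 2.64, 3.95 and 7.71. Those for 3 adipocyte genes were 17.6, 3.99 and 2.65, led in BEC by Cfd, while Plin1 was highest in FRC. Cd24a, the gene of CD24, was at 3.89 in BEC, 3.40 in LEC and 1.61 in FRC. Several members are also transcribed in leukocytes. The blood cell sums did not share an order: those of B cell, T cell and red cell genes were highest in BEC, and that of macrophage and dendritic cell genes in LEC. The part of all these cells in the results below was not tested. In bulk RNA, fewer cells of a type and less RNA per cell cannot be told apart.

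Of the 111 genes, 80 were well above background on all arrays, 11 on some and 20 on none. The 20 were Fut1, Fut9, St6galnac1, St8sia3, Galnt9, Galntl5, Galntl6, Gcnt3, B3galt2, B3galt5, B3gnt5, B4galnt2, B4galnt3, B4galnt4, Chst5, Chst9, Chst13, Hs3st4, Hs3st5 and Ndst4, which stand here without a level. For BEC against FRC, 90 genes were compared, of which 10 were higher by 4-fold or more (11.1%, against 6.59% of all genes) and 10 lower (11.1%, against 7.58%). In LEC against FRC, 7 of 91 were higher (7.69%, against 4.88% of all genes) and 6 lower (6.59%, against 5.92%). In BEC against LEC, 10 of 88 were higher (11.4%, against 3.37% of all genes) and 6 lower (6.82%, against 3.39%). The median log2 difference lay near 0 throughout, at 0.08 against 0.10 over all genes for BEC minus FRC, 0.03 against 0.03 for LEC minus FRC, and 0.11 against 0.07 for BEC minus LEC. The family thus had no common direction, with genes called both ways in each comparison. By another probe, 3 of the 30 genes under 4-fold for BEC against FRC with such a probe passed 4-fold (B3gnt2, Chst11 and Galnt2), and none did in the other comparisons. Counting each gene once, 28 of 91 genes reached 4-fold in some comparison (30.8%), against 17.9% of all genes compared. Where all 3 arrays gave a signal well above background, the median range over them was 1.36 log2 units for the 80 members and 0.80 for 15596 genes.

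**Figure D1:**
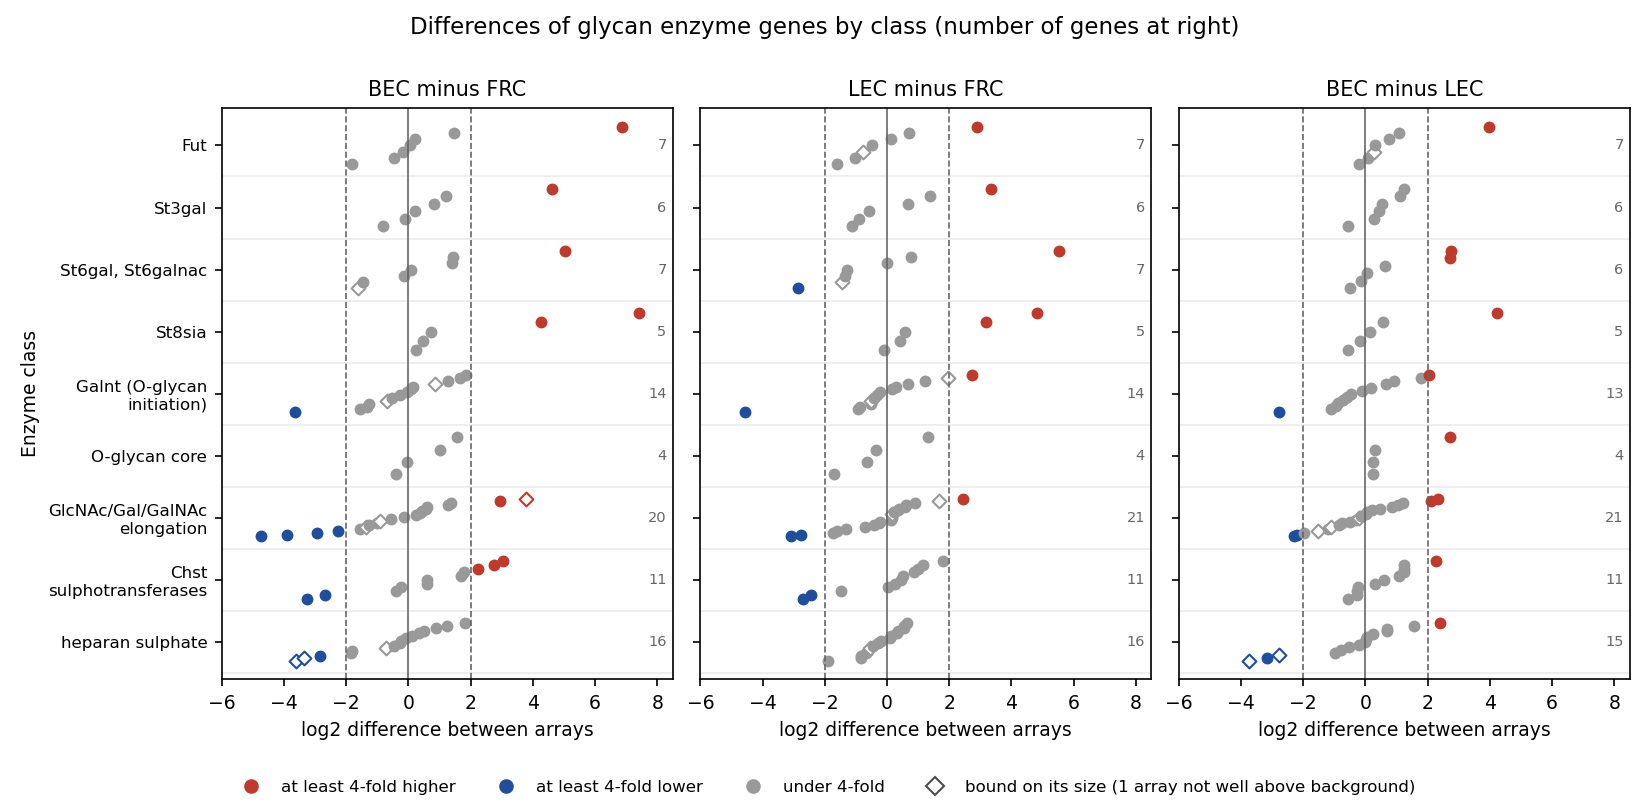
Log2 difference between 2 arrays (horizontal axis) for each enzyme gene compared, by class (vertical axis, with genes in order of their difference within a class), for BEC minus FRC, LEC minus FRC and BEC minus LEC. Dashed lines mark 4-fold, open diamonds are bounds, and most points lie between the dashed lines while single genes such as Fut7 (6.85, BEC minus FRC) and B3gnt9 (-4.76) lie far outside.

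The genes that make selectin ligands were read first. Of 12 enzymes of this route, 5 exceeded FRC by 4-fold or more in BEC (Fut7, Chst4, Chst2, B3gnt3 and St3gal6) and none lower, with a median difference of 1.53. All genes had 6.59% higher in that comparison, 4.88% in LEC against FRC and 3.37% in BEC against LEC. In LEC against FRC 2 of 12 were higher and none lower (median 1.01), and in BEC against LEC 3 of 12 were higher and none lower (median 0.65). Fut7, the fucosyltransferase that completes sialyl Lewis x on selectin ligands, was at 5.34 in BEC, 1.38 in LEC and -1.52 in FRC. The 3 arrays were therefore well separated, by 116-fold for BEC over FRC, 15.5-fold for BEC over LEC and 7.44-fold for LEC over FRC. Chst4, which places sulphate on N-acetylglucosamine in high endothelial cells, was at 0.65 in BEC, -1.61 in LEC and -2.11 in FRC. BEC exceeded FRC 6.79-fold and LEC 4.80-fold, while LEC and FRC differed by 0.50 (log2). In build mm9, Fut7 was probed at chromosome 2, 25281802 to 25281861, and Chst4 at chromosome 8, 112554079 to 112554138. Chst2, the second sulphotransferase of this step, was at 2.36 in BEC, 1.12 in LEC and -0.67 in FRC, which is 8.20-fold for BEC over FRC and 3.48-fold for LEC over FRC. Its other probe was dimmer on each array and differed by only 0.41 (log2) for BEC minus FRC, so the Chst2 call rests on a single probe.

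B3gnt3 extends the core O-glycan arm so that it can be sulphated and fucosylated. It was at -0.56 in BEC and -2.68 in LEC and was not well above background in FRC, so BEC exceeded FRC by at least 13.7-fold and LEC by 4.33-fold. St3gal6, a sialyltransferase that caps terminal galactose on selectin ligands, was at 4.68 in BEC, 3.42 in LEC and 0.07 in FRC. Both endothelia were thus far above FRC, by 24.3-fold for BEC and 10.2-fold for LEC, and they differed from each other by 2.39-fold. St3gal4, which has an overlapping role, was at 2.01 in BEC, 1.49 in LEC and 0.81 in FRC, a smaller step in the same order, and its other probe differed by 1.16 (log2) for BEC minus FRC, close to the 1.20 of its brightest probe. Fut4, the other fucosyltransferase of the selectin ligand route, was at 1.24 in BEC, 0.46 in LEC and -0.24 in FRC. Gcnt1, which makes the branched core on which many of these chains grow, was at 4.01 in BEC, 3.75 in LEC and 2.44 in FRC, 2.98-fold for BEC over FRC, and its other 2 probes read 1.62 and 1.74 (log2) for the same difference. Enzymes shared by most O-glycans were under 4-fold. C1galt1, which makes the basic core, was at 0.45 in BEC, 0.20 in LEC and 0.85 in FRC, and on its other probe BEC minus FRC was -1.67 (log2) and LEC minus FRC -1.45. Its chaperone C1galt1c1 was at 2.46 in BEC, 2.16 in LEC and 2.52 in FRC. B4galt1, the general galactosyltransferase of lactosamine, was at 3.05 in BEC, 3.02 in LEC and 4.32 in FRC, which is 2.42-fold lower in BEC than in FRC. St3gal3 was at -2.10 in BEC, -1.56 in LEC and -2.93 in FRC, and its 2 probes gave BEC minus FRC differences of opposite sign, 0.83 and -0.57.

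**Figure D2:**
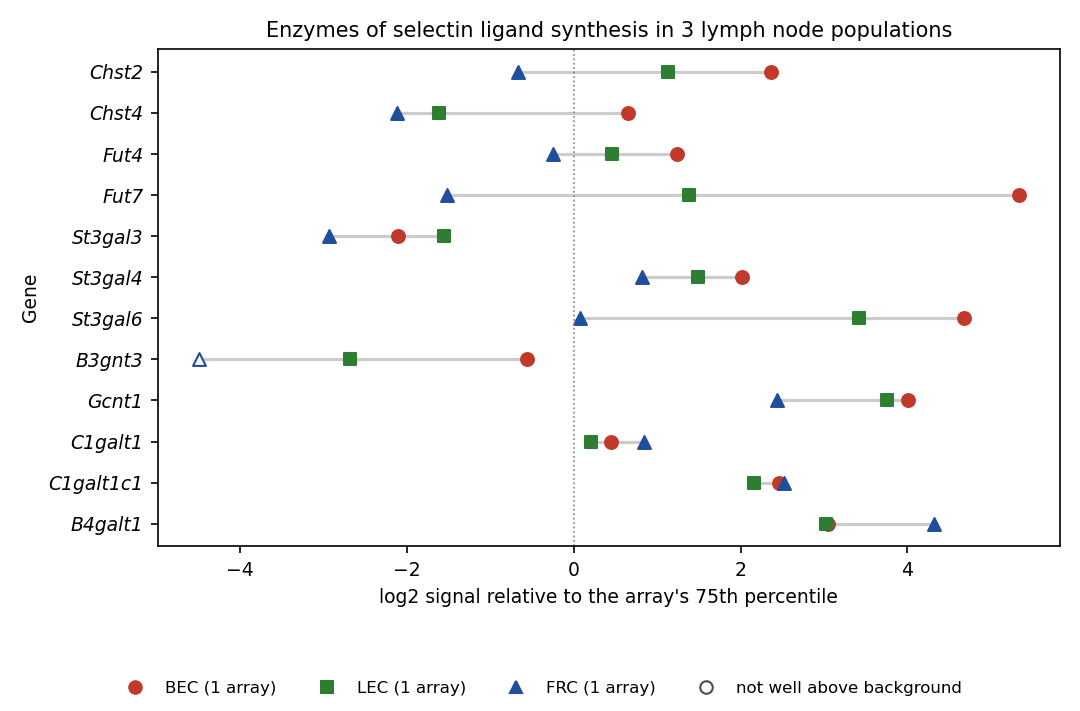
Level of each enzyme gene of selectin ligand synthesis (log2 signal relative to the array's 75th percentile, horizontal axis) in BEC, LEC and FRC, 1 array each. Filled points are well above background. Fut7 spans 5.34 in BEC to -1.52 in FRC, while C1galt1c1 stays between 2.16 and 2.52.

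B4galt4 adds galactose to N-acetylglucosamine and accepts the sulphated sugar well. It was at 3.94 in BEC, 1.60 in LEC and 1.01 in FRC, with BEC 7.61-fold above FRC and 5.05-fold above LEC. Together with Fut7, Chst4, B3gnt3 and the polysialyltransferase gene St8sia4, it was 1 of 5 among 87 members with a BEC level 4-fold or more above each other population (5.75%, against 2.27% of all genes). Both comparisons behind this pattern share the BEC array. Under normexp 3 of the 5 kept this pattern, without Chst4 and B3gnt3. The marker sums for B and T cells were likewise highest in BEC. The T cell gene Cd3e ran the other way, at -1.12 in BEC, -0.73 in LEC and -0.55 in FRC. Ptprc, the gene of CD45, was at 0.23 in BEC, -1.57 in LEC and -2.36 in FRC. The part of blood cell RNA in these 5 results was not tested. The RefSeq promoter windows of the 5 genes (GRCm38.p6, the 250 bases before the start of transcription, written in its direction) are shown because these genes shared the pattern, with motif matches in capitals.
Fut7, chr2:25422992-25423241, plus strand: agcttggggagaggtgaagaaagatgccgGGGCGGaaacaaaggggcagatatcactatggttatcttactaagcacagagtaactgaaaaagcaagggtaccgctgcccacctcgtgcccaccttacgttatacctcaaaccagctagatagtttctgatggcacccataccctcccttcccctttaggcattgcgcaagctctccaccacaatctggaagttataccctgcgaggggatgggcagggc
Chst4, chr8:110039335-110039584, minus strand: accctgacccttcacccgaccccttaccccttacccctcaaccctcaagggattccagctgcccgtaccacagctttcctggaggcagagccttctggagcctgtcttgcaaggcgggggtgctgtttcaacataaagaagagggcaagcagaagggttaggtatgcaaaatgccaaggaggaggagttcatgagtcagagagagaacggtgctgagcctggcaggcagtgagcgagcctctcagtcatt
B3gnt3, chr8:71701801-71702050, minus strand: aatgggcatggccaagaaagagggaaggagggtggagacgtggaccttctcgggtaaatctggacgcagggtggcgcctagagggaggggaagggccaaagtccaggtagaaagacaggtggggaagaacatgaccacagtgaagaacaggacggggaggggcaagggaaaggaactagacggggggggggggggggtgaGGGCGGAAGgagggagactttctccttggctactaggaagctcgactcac
B4galt4, chr16:38742009-38742258, plus strand: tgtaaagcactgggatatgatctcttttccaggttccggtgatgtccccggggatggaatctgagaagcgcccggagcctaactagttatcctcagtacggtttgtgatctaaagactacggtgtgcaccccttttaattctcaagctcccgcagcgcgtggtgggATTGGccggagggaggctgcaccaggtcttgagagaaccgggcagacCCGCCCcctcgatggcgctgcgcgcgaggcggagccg
St8sia4, chr1:95667595-95667844, minus strand: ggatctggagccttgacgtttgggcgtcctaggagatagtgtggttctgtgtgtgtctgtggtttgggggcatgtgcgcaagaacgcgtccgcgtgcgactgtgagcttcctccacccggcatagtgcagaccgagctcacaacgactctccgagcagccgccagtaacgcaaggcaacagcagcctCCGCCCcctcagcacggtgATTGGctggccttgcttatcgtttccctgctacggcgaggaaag
Motifs searched on both strands were the GC box GGGCGG, the TATA box TATAAA, the CCAAT box CCAAT, an ETS site CGGAAG, the nuclear receptor half-site AGGTCA and the kappaB site. A GC box was found in 4 of the 5 windows, all but that of Chst4, and in 32.7% of all 32851 windows. The CCAAT box was in the windows of B4galt4 and St8sia4 (33.8% of all windows), and the ETS site, overlapping the GC box, in that of B3gnt3 (13.6%). None of the 5 held the TATA box (12.4%), the half-site (14.0%) or the kappaB site (1.41%), and the Chst4 window held none of the 6 motifs. Fut7 has a further annotated start, whose window was not read.

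Among the fucosyltransferases, Fut7 was the single gene of 7 compared that reached 4-fold in any comparison, against 17.9% of all genes compared. Fut8, which adds the core fucose of N-glycans, was at -0.18 in BEC, -1.25 in LEC and -0.22 in FRC, a difference of -1.03 for LEC minus FRC and 1.07 for BEC minus LEC. Fut10 ran the other way from Fut7, at -0.34 in BEC, -0.12 in LEC and 1.49 in FRC, 3.55-fold lower in BEC than in FRC, but its other probe gave -0.06 (log2). Fut11 lay between 0.33 and 0.81 on all arrays. Fut2, which makes the H antigen, was at -3.83 in BEC and -3.36 in FRC, near the lowest level well above background. In LEC it was not well above background. Fut4-ps1, a pseudogene of Fut4, had levels of -2.26 to -2.04, a range of 0.22.

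Of the 20 sialyltransferase genes, 6 reached 4-fold in some comparison, against 17.9% of all genes compared. The 20 include St6galnac1 and St8sia3, which were well above background on no array and so were not compared. St8sia4, 1 of the pair of enzymes that build polysialic acid, was at 4.64 in BEC, 0.40 in LEC and -2.78 in FRC. No member differed more between any 2 arrays: BEC was 171-fold above FRC and 18.8-fold above LEC, and LEC was 9.08-fold above FRC. Its other probe was not well above background in FRC, gave 3.71 (log2) for BEC minus LEC and bounds of at least 4.38 for BEC minus FRC and at least 0.67 for LEC minus FRC. With the median over both probes, LEC minus FRC was 1.93, under 4-fold. St8sia2, the other polysialyltransferase, was low on every array, at -2.62 in BEC, -3.20 in LEC and -3.10 in FRC. St8sia6, which adds a further sialic acid to O-glycans, was at 0.75 in BEC, 1.32 in LEC and -3.50 in FRC. The endothelia lay together and FRC far below, by 4.25 (log2) against BEC and 4.82 against LEC. A second St8sia6 probe was not well above background in FRC and gave bounds of at least 0.33 and at least 0.90 (log2), under 4-fold. St6galnac3, which sialylates the N-acetylgalactosamine of O-glycans and gangliosides, followed the same pattern at 1.76 in BEC, 2.27 in LEC and -3.26 in FRC, with factors of 32.6 and 46.4. Its probe lay on chromosome 3 at 152866631 to 152866690 (mm9). With St3gal6 and Fut7, these genes made up 5 of 90 members 4-fold or more higher in both endothelia than in FRC (5.56%, against 3.22% of all genes), and these comparisons share the FRC array.

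St6gal1, which caps N-glycans with the linkage that the B cell lectin CD22 binds, was at -0.71 in BEC, -3.45 in LEC and -0.59 in FRC. It was the single member of 88 at least 4-fold lower in LEC than in each other population (1.14%, against 0.586% of all genes). Both comparisons share the LEC array. St6gal1 was 7.29-fold lower in LEC than in FRC, while BEC was 6.67-fold above LEC. Its other probe did not follow: it was not well above background in BEC, at -3.70 in LEC and -3.80 in FRC, and differed by 0.10 for LEC minus FRC. With the median over both probes, and under normexp, it was under 4-fold in both comparisons. B cells also transcribe St6gal1. The summed signal of 4 B cell genes was 9.14 in BEC, 3.57 in LEC and 1.45 in FRC, so it was higher in LEC than in FRC. The part of B cell RNA in the St6gal1 result was not tested. St6galnac2, another O-glycan sialyltransferase, was at 3.18 in BEC, 0.46 in LEC and 1.74 in FRC, 6.58-fold higher in BEC than in LEC. Its other 2 probes gave 1.34 and 2.05 (log2) for BEC minus LEC, in the same direction. St6galnac4 was at 1.08 in BEC, 0.45 in LEC and -0.33 in FRC. St6galnac6, a ganglioside enzyme, was at 0.25 in BEC, 0.38 in LEC and 1.72 in FRC, while its other 2 probes gave -1.13 and 0.19 (log2) for BEC minus FRC. St6galnac5 was well above background in FRC alone, where it was at least 3.08-fold above BEC and at least 2.71-fold above LEC. St3gal1 ranged over 0.56 (log2), St8sia5 over 0.41 and St6gal2 over 0.07. St3gal2 was at 2.24 in BEC, 1.96 in LEC and 3.07 in FRC, though its other probe gave 0.25 (log2) for BEC minus FRC. St3gal5, the first enzyme of ganglioside synthesis, was at 2.25 in BEC, 1.13 in LEC and 2.04 in FRC. St8sia1, the GD3 synthase gene, was at -1.04 in BEC, -1.17 in LEC and -1.77 in FRC.

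**Figure D3:**
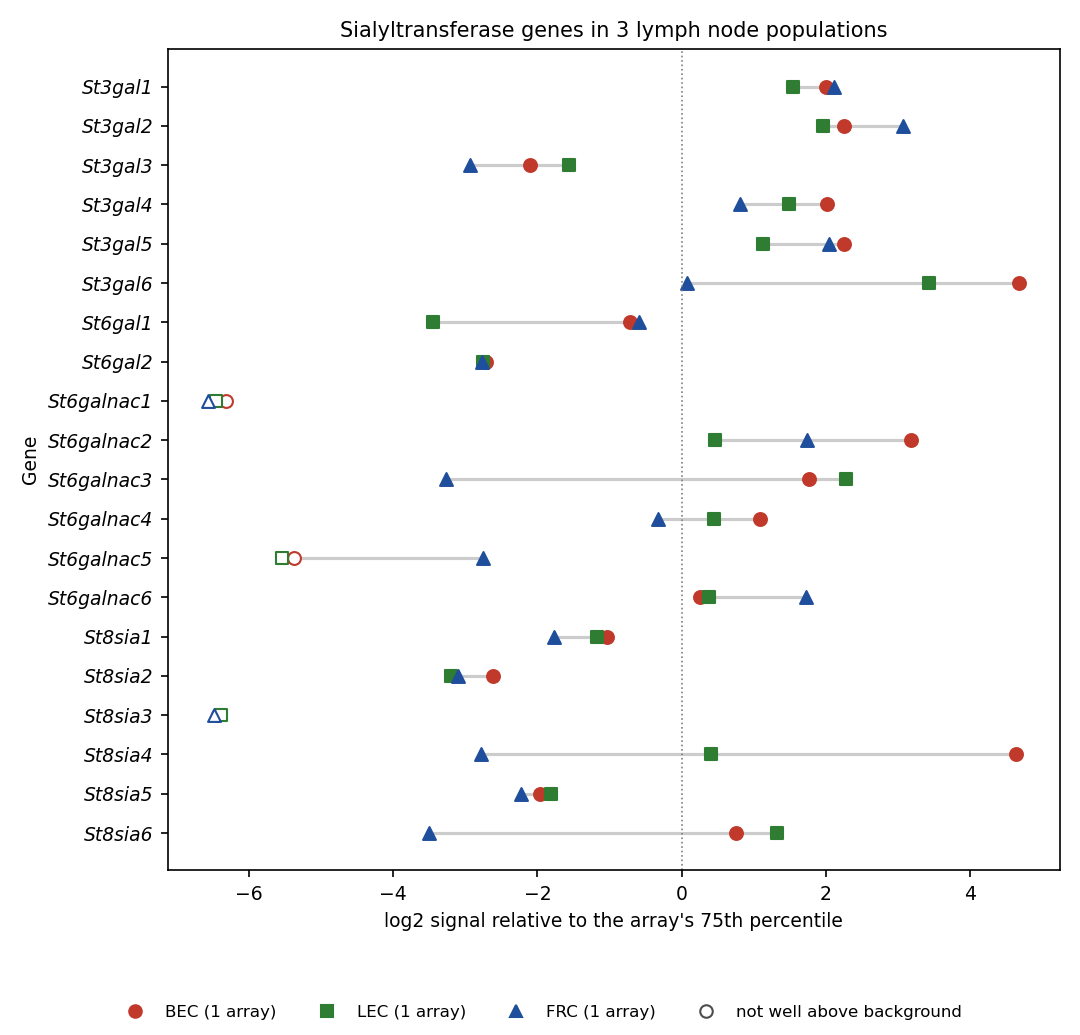
Level of the 20 sialyltransferase genes (log2 signal relative to the array's 75th percentile, horizontal axis) in BEC, LEC and FRC, 1 array each. Open points are not well above background. St3gal6, St6galnac3, St8sia4 and St8sia6 have both endothelial points far to the right of FRC, and St6gal1 has LEC alone to the left.

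Among genes that extend or branch chains with N-acetylglucosamine, galactose or N-acetylgalactosamine, calls ran in both directions. For BEC against FRC, 2 of 20, B3gnt3 and B4galt4, were higher by 4-fold or more (6.59% of all genes). In that comparison 4 were lower (7.58% of all genes), and the median was -0.36. B3gnt9, a little-studied family member, was at -2.22 in BEC, -0.25 in LEC and 2.53 in FRC, a graded series in which BEC was 27.0-fold and LEC 6.86-fold below FRC. B3galnt1, the globoside synthase gene, was at 1.26 in BEC, 0.42 in LEC and 3.52 in FRC, 4.79-fold lower in BEC and 8.57-fold lower in LEC, and its other probe gave -1.24 (log2) and a bound of -1.68, under 4-fold. B4galt2 was at -1.90 in BEC, -0.70 in LEC and 1.03 in FRC, 7.61-fold lower in BEC than in FRC, and its other probe gave -2.64 (log2). B3galt1, which makes type I chains, was at -4.23 in BEC, -1.95 in LEC and -0.33 in FRC, lower in BEC by 14.9-fold against FRC and 4.86-fold against LEC. Its other 2 probes disagreed in size for BEC minus FRC, at -0.17 (log2) for one and, for the other, not well above background in BEC, a bound of -3.32. B4galt6, a lactosylceramide synthase gene, was at -0.78 in BEC, 1.41 in LEC and -1.03 in FRC. It was the single member of 88 with a LEC level 4-fold or more above each other population (1.14%, against 1.14% of all genes), 5.42-fold over FRC, with BEC 4.55-fold below LEC. Under normexp its BEC minus LEC difference was -1.85 (log2), under 4-fold. Its partner B4galt5 was low, at -2.62 in LEC and -3.25 in FRC, and not well above background in BEC.

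Other genes of this class were under 4-fold by their brightest probe. B3gnt2, the main enzyme of polylactosamine, was at 3.89 in BEC, 2.68 in LEC and 2.52 in FRC, 2.58-fold for BEC over FRC, and its other probe gave a difference just past 4-fold. B4galt3 was at 1.90 in BEC, 0.84 in LEC and 0.61 in FRC. B3gnt8 was at -1.28 in BEC, -0.45 in LEC and 0.26 in FRC, and B4galnt1, an early ganglioside enzyme, at -1.80, -1.04 and -0.78 in the same order, with a second B4galnt1 probe at 1.40 (log2) for BEC minus LEC, against -0.77 on the first. B3gnt1, whose accession now carries the symbol B4gat1 and which primes the sugar of dystroglycan, lay between 2.41 and 2.97. B3galnt2, of the same dystroglycan pathway, lay between 0.63 and 0.93. B4galt7 and B3galt6, which build the linkage that joins heparan and chondroitin sulphate to their core proteins, ranged over 0.43 and 0.57 (log2).

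Enzymes of the Galnt family start O-glycans. Of 14 compared, none was 4-fold higher for BEC against FRC (6.59% of all genes) and 1 was lower (7.58%). In LEC against FRC 1 was higher (4.88% of all genes) and 1 lower (5.92%). Galntl1, now Galnt16, was at 0.23 in BEC, -0.68 in LEC and 3.89 in FRC, 12.7-fold and 23.8-fold below FRC in BEC and LEC. Galntl4, now Galnt18, was at 1.48 in BEC, 2.37 in LEC and -0.36 in FRC, 6.61-fold for LEC over FRC, while its other probe, not well above background in FRC, gave a bound of at least 1.46 (log2), under 4-fold. Galnt1, a broadly expressed family member, was at -1.18 in BEC, 1.61 in LEC and 0.39 in FRC, so BEC was 6.91-fold below LEC, with FRC between them. Galntl2 was at 4.69 in BEC, 2.64 in LEC and 3.04 in FRC, 4.13-fold higher in BEC than in LEC and just inside the threshold. Galnt10, just outside it, was at 1.53 in BEC, -0.26 in LEC and 0.26 in FRC. Galnt2, another broadly expressed initiator, differed by -1.26 for BEC minus FRC, and by -2.45, past 4-fold, on its other probe. Galnt11 ranged over 0.22 (log2). Galnt14 was at -3.42 in BEC and -2.30 in LEC and not well above background in FRC, at least 3.92-fold higher in LEC. Among core enzymes, Gcnt2, which branches polylactosamine into the I antigen, was at -0.62 in BEC, -3.34 in LEC and -1.63 in FRC, 6.57-fold higher in BEC than in LEC. Its other probe was not well above background in LEC and gave a bound of at least 0.98 (log2).

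The Chst sulphotransferases showed calls in both directions. Of 11 compared in BEC against FRC, 3 (Chst2, Chst4 and Chst7) were higher by 4-fold or more (6.59% of all genes) and 2 lower (7.58%). In LEC against FRC none was higher (4.88% of all genes) and 2 lower (5.92%). Chst7, which sulphates chondroitin and N-acetylglucosamine, was at 3.22 in BEC, 1.98 in LEC and 0.98 in FRC, 4.74-fold higher in BEC than in FRC. Chst8, which sulphates terminal N-acetylgalactosamine, was at -1.85 in BEC, -1.29 in LEC and 1.40 in FRC, 9.52-fold and 6.46-fold below FRC. Chst10, which makes the HNK-1 carbohydrate, was at -3.98 in BEC, -3.74 in LEC and -1.30 in FRC, 6.39-fold and 5.43-fold below FRC, with both endothelial signals near the lowest level well above background. Together with Galntl1, B3gnt9 and B3galnt1, these were 5 of 90 members at least 4-fold lower in both endothelia than in FRC (5.56%, against 4.76% of all genes), and these comparisons share the FRC array. The chondroitin enzymes were mostly under 4-fold. Chst15, which adds the second sulphate of chondroitin sulphate E, was at 3.34 in BEC, 2.73 in LEC and 1.57 in FRC. Chst3 was at -0.88 in BEC, -2.11 in LEC and -2.56 in FRC, and Chst12 at 1.08, -0.01 and 1.47 in the same order. Chst11 had probes that disagreed: the brightest lay between -0.22 and 0.64, while the other 2 gave 2.41 and a bound of at least 2.28 (log2) for BEC minus FRC, both past 4-fold. Chst14, of dermatan sulphate, lay between 2.39 and 2.67, and Chst1, of keratan sulphate, between 2.55 and 3.13.

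Among heparan sulphate genes, 3 sulphotransferase genes were low in BEC. For BEC against FRC none of 16 was 4-fold higher (6.59% of all genes) and 3 were lower (7.58%). None of 16 reached 4-fold in LEC against FRC (4.88% of all genes higher and 5.92% lower). In BEC against LEC 1 of 15 was higher (3.37% of all genes) and 3 lower (3.39%). Hs3st3b1, a 3-O-sulphotransferase gene, was at -1.17 in BEC, 2.0 in LEC and 1.68 in FRC, lower in BEC by 7.19-fold against FRC and 8.96-fold against LEC. Its paralogue Hs3st3a1 was not well above background in BEC and was at -0.65 in LEC and -1.01 in FRC, at least 10.3-fold lower in BEC than in FRC and at least 13.3-fold lower than in LEC. Hs6st2, a 6-O-sulphotransferase gene, was not well above background in BEC and was at -1.61 in LEC and -0.76 in FRC, at least 12.3-fold lower in BEC than in FRC and at least 6.83-fold lower than in LEC. The other 2 Hs6st2 probes were not well above background on any array, and Hs3st3a1 and Hs3st3b1 had 1 probe each. Among the 60-base probes of all members, no pair shared more than 29 bases in any ungapped alignment. With B3galt1, these were 4 of 87 members at least 4-fold lower in BEC than in each other population (4.60%, against 1.74% of all genes). Both comparisons behind this pattern share the BEC array. Under normexp background correction 1 of the 4, Hs3st3b1, kept this pattern, and under the median over probes 3 did, without B3galt1. Summed signals of 4 pericyte genes were 39.7 in BEC, 56.5 in LEC and 65.7 in FRC. Acta2 led this sum, at 5.17 in BEC, 5.67 in LEC and 5.48 in FRC. Rgs5 was lower in BEC by 4.57-fold against FRC and 5.11-fold against LEC. Kcnj8 was at 1.38 in BEC, 1.39 in LEC and 4.18 in FRC. Cspg4 ran the other way and was highest in BEC, at -0.56, against -1.26 in LEC and -0.75 in FRC. The part of pericyte RNA in the results for the genes low in BEC was not tested.

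The Hs3st3 pair lies on chromosome 11, with probes at 64335924 to 64335983 for Hs3st3a1 and 63702635 to 63702694 for Hs3st3b1 (mm9). Their promoter windows, again the 250 bases before the start with motif matches in capitals, are shown because both genes were low in BEC.
Hs3st3a1, chr11:64435082-64435331, plus strand: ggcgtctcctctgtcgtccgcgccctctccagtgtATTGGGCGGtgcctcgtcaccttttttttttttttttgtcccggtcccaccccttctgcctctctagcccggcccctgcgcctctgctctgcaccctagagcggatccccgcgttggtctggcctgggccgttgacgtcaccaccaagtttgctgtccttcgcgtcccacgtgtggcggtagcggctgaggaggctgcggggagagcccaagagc
Hs3st3b1, chr11:63922285-63922534, minus strand: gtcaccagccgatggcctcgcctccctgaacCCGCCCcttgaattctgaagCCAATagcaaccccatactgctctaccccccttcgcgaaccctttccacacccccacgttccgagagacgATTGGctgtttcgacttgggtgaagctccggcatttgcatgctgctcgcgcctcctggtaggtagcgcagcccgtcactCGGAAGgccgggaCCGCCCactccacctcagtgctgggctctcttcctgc
Each window held the GC box and the CCAAT box, which overlap in the Hs3st3a1 window, and that of Hs3st3b1 also held the ETS site. Over the 4 genes low in BEC, including B3galt1 and Hs6st2, the CCAAT box was in 4 windows (33.8% of all windows) and the GC box in 2 (32.7%). B3galt1 and Hs6st2 each have a further annotated start, whose window was not read.

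Genes for the heparan sulphate backbone and its first modifications were closer to level. Ext1, a subunit of the chain polymerase, was at 2.15 in BEC, 2.09 in LEC and 3.98 in FRC, 3.57-fold and 3.70-fold below FRC, the nearest to 4-fold among genes under it on that side. Ext2, the partner subunit, ranged over only 0.29 (log2), at 3.93 in BEC, 3.91 in LEC and 4.20 in FRC. Extl3, which starts the chain, was at 4.24 in BEC, 2.69 in LEC and 3.36 in FRC, with its other probe at -0.24 (log2) for BEC minus FRC. Extl2 was at -0.05 in BEC, 0.94 in LEC and 1.76 in FRC. Ndst1, the main N-sulphotransferase, was at 4.08 in BEC, 3.39 in LEC and 3.59 in FRC, with its other 3 probes between -0.99 and 0.60 (log2) for BEC minus FRC. Ndst2 lay between 0.49 and 0.83. Ndst3 was at -1.55 in BEC, -3.96 in LEC and -3.36 in FRC, 5.31-fold higher in BEC than in LEC, where it was near the lowest level well above background (-4.20). Hs2st1 ranged over 0.46 and Hs6st1 over 0.20 (log2). Hs3st1, whose product makes the antithrombin-binding site, was at 2.18 in BEC, 1.48 in LEC and 0.93 in FRC, the reverse order of the Hs3st3 pair in BEC and FRC. Hs3st2 was well above background in FRC alone, at -3.64.

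**Figure D4:**
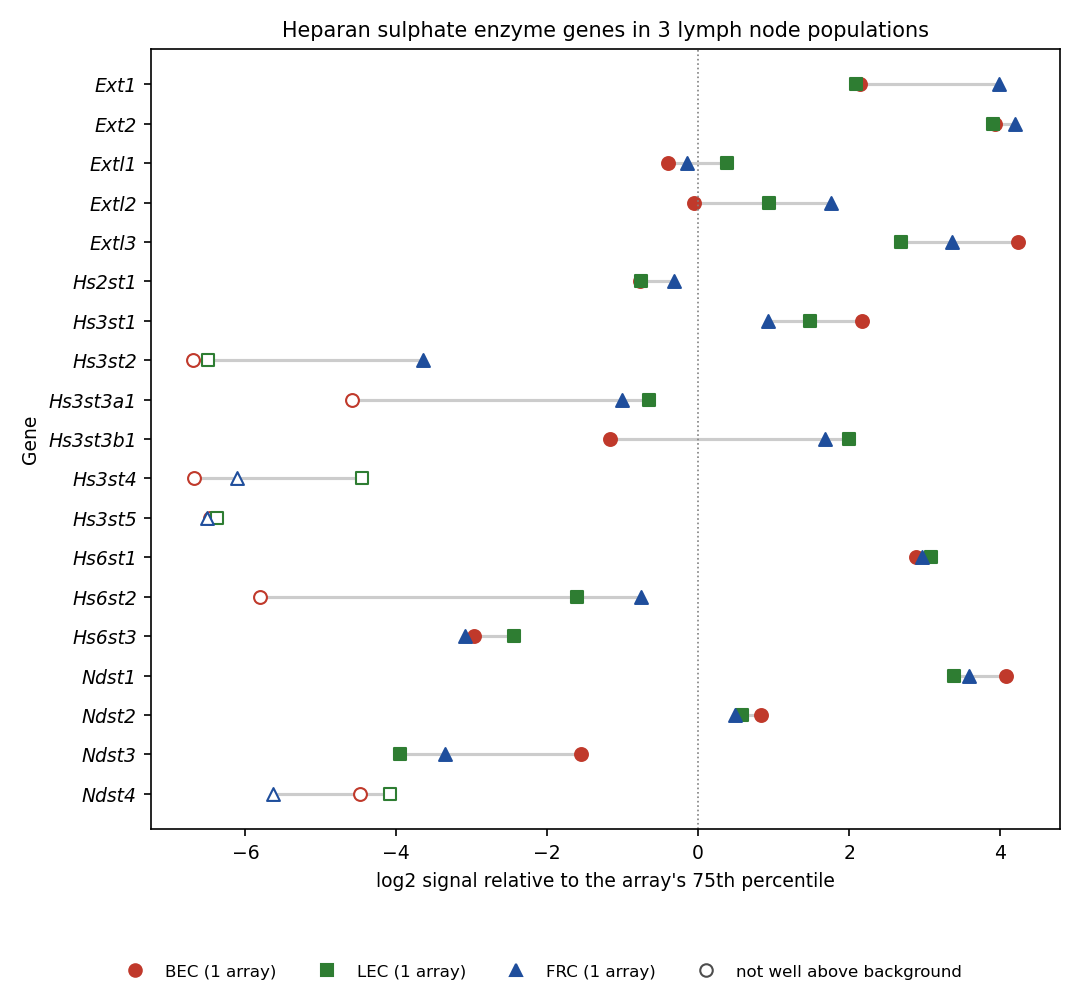
Level of the 19 heparan sulphate enzyme genes (log2 signal relative to the array's 75th percentile, horizontal axis) in BEC, LEC and FRC, 1 array each. Open points are not well above background. Hs3st3a1, Hs3st3b1 and Hs6st2 have BEC far to the left of the other points, while Ext2, Hs2st1, Hs6st1 and Ndst2 have all points close together.

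Genes that work beside these enzymes were read as lists. Of 22 genes for sugar and sulphate donors, none was 4-fold higher in either endothelium than in FRC, and 1, Ugdh, was lower in each. Over all genes, 6.59% were higher and 7.58% lower for BEC against FRC, and 4.88% and 5.92% for LEC against FRC. Ugdh, which makes UDP-glucuronic acid for heparan and chondroitin sulphate and hyaluronan, was at 0.78 in BEC, 1.22 in LEC and 4.28 in FRC, 11.3-fold and 8.34-fold below FRC. Gne, the rate-limiting enzyme of sialic acid synthesis, was at 2.60 in BEC, 1.53 in LEC and 1.12 in FRC, and Papss1, which makes the sulphate donor, at 2.67, 2.39 and 3.38 in the same order. Medians of the list were -0.13 for BEC minus FRC, -0.10 for LEC minus FRC and 0.05 for BEC minus LEC. Of 9 selectins and carriers of their ligands, 7 were 4-fold or more higher in BEC than in FRC (6.59% of all genes) and 1 lower (7.58%). In LEC against FRC 5 were higher (4.88% of all genes) and 2 lower (5.92%). Emcn, a sialomucin, was at 7.08 in BEC, 3.86 in LEC and -1.42 in FRC. Podxl2 ran the other way, at -3.75 in LEC and -1.31 in FRC. It was not well above background in BEC, at least 7.85-fold below FRC. Cd34 was lowest in LEC, at 7.66 in BEC, 3.70 in LEC and 7.12 in FRC.

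Of 18 heparan sulphate carriers and enzymes outside the named families, 3 were higher by 4-fold or more for BEC against FRC (6.59% of all genes) and 6 lower (7.58%), and in LEC against FRC 3 were higher (4.88%) and 4 lower (5.92%). Gpc3 and Gpc6, glypican core proteins, had the largest differences of the list in BEC against FRC, with Gpc3 at -1.30 in BEC, -0.23 in LEC and 5.56 in FRC, and Gpc6 at -3.11, -1.64 and 3.01. Hspg2, the basement membrane proteoglycan perlecan, was at 6.69 in BEC, 4.69 in LEC and 4.02 in FRC. Sulf2, which removes sulphate from finished heparan sulphate, was at 1.62 in BEC, 3.43 in LEC and 4.29 in FRC, 6.39-fold lower in BEC than in FRC. Among 9 chondroitin and dermatan enzymes, 3 were at least 4-fold lower in BEC than in FRC and 3 in LEC than in FRC (against 7.58% and 5.92% of all genes), and none was higher. Chpf, a chondroitin polymerase subunit, was at -2.27 in BEC, -2.27 in LEC and 1.75 in FRC, 16.2-fold lower in both endothelia. Of 7 N-glycan branching genes, Mgat3, which adds the bisecting sugar, was the single gene past 4-fold in any comparison, against 17.9% of all genes compared. Mgat3 was at -2.24 in BEC, -3.01 in LEC and 1.11 in FRC.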

How the data were processed

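The deposited scanner files hold intensity values, background-subtracted and detrended within each array per the file headers. The submitters' processing notes name Agilent Feature Extraction, version 10.7.3.1. The deposited series matrix, an alternative, holds linear intensity values with nearly equal sorted columns (median 40.2), and its log2 values correlated with the scanner values at 0.99998. The 3 arrays lay on 1 slide.

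Outlier spots were dropped (18 of 41174 probes lost all of theirs), spots were averaged as log2, and the 75th percentile was subtracted (intensities of 361 in BEC, 268 in LEC and 387 in FRC). Background status followed the majority of a probe's spots. For a bound, the dim array took its measured value or its lowest level well above background (-4.38 in BEC, -4.20 in LEC and -4.34 in FRC), whichever was higher. No spot was saturated, and the number of arrays limits the precision. Accessions of 101 members matched RefSeq (GRCm38.p6). Of these, 3 had a changed symbol. Probe positions are mm9 per the file headers.

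All genes past 4-fold and the 12 selectin ligand enzymes are named, with further members as examples of each class chosen after their values were seen. Members and lists were chosen with earlier results of these data known. The rule was run on simulated data, with known shifts larger than the threshold put on genes well above background. That run was not set up to test calls that rest on a bound. Python 3.11.15, numpy 2.4.6, pandas 2.3.3, matplotlib 3.10.9, R 4.3.3 and limma 3.58.1 (normexp, offset 50) were used.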

Additional observations from a re-analysis of the deposited data

How the results depend on the processing

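Each result was recomputed under 6 settings: normexp background correction, quantile normalization, the 75th percentile over probes above background on all arrays, the deposited series matrix, no filter on dim probes, and the median over the probes of a gene. Of 49 calls of a member in a comparison, 31 stayed at least 4-fold in every setting that gave a value and none changed sign. Normexp, which adds an offset of 50 and so shrinks differences of dim probes, gave BEC over LEC counts of 5 higher and 2 lower, against 10 and 6. Chst4 and B3gnt3 were then at 1.62 and 1.21 (log2) for BEC minus LEC, Hs3st3a1 and Hs6st2 at -1.79 and -1.50, and Chst10 was under 4-fold in both comparisons with FRC. The LEC minus FRC median was 0.11 under normexp and 0.12 with no filter, against 0.03, and the BEC minus LEC median was 0.034 with no filter, against 0.11. Under the median over probes St8sia4 read 1.93 for LEC minus FRC and B3galt1 -1.48 for BEC minus LEC, Chst2 read 1.72 for BEC minus FRC, and St6gal1 read -1.38 for LEC minus FRC and 1.05 for BEC minus LEC. Galntl2 was under 4-fold for BEC against LEC in 3 settings. Spike-in slopes (log signal against log concentration) in the file headers were 0.919 in BEC, 1.00 in LEC and 0.821 in FRC, so equal RNA differences need not give equal log2 differences. No paired analysis was possible because each population had 1 array. No slide block was run because all arrays lay on 1 slide.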
